A study of Mus musculus with 8 samples.

Results

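NF-kappaB is a family of transcription factors built from 5 subunits, encoded by Nfkb1, Nfkb2, Rel, Rela and Relb. The levels of these genes and of 5 others grouped here as feedback inhibitors were compared between Tomato-positive and Tomato-negative kidney cells. These others were Nfkbia, Nfkbie, Nfkbiz, Tnfaip3 and Birc3. The group name is a label: Nfkbiz is also needed for a set of secondary response genes, and Birc3 acts at the tumour necrosis factor receptor. The 10 genes were chosen by symbol from the 25240 rows of the count table. All 10 were present and all passed the filter on low counts, with at least 69 counts in every library.

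The series held 8 RNA libraries, 4 of Tomato-positive and 4 of Tomato-negative cells. All came from p16-tdTomato mice fed adenine to bring about chronic kidney disease, so no library from a healthy kidney stands beside them, and the labels name all cells as proximal tubular epithelium. The titles give 4 identifiers, CKD523_2, CKD523_3, CKD627_1 and CKD627_2, each carried by 1 Tomato-positive and 1 Tomato-negative library. The sources used here do not say whether an identifier is 1 mouse, what the prefixes CKD523 and CKD627 stand for, how old the mice were, how the cells were separated or how the reporter was built. p-values therefore measure the spread between these libraries.

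In a resting cell, NF-kappaB dimers are held in the cytoplasm by proteins of the IkappaB family. Signals from tumour necrosis factor, interleukin 1 or Toll-like receptors activate a kinase complex that marks IkappaB for destruction, and the freed dimers enter the nucleus and switch on inflammatory genes. Among the genes they switch on are their own inhibitors, such as Nfkbia and Tnfaip3, which closes a negative feedback loop. A separate, slower branch runs through the kinase encoded by Map3k14, which has the precursor made from Nfkb2 cut to a subunit that pairs with RelB. In the kidney the pathway is known for its part in the inflammatory response of injured tubules, and in senescent cells for driving secreted cytokines.

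Total counts lay between 13474439 and 19886202 per library, and levels are given in CPM, counts scaled to each library's total and its TMM factor. The reporter tdTomato lay between 3227 and 4188 CPM in Tomato-positive and between 87.3 and 152 CPM in Tomato-negative libraries, while Cdkn2a, the gene of p16, had between 6 and 57 counts in Tomato-positive and between 4 and 39 in Tomato-negative libraries. Of 14 proximal tubule markers all were detected, and their summed level ranged from 4240 to 12994 CPM in Tomato-positive and from 6277 to 27972 CPM in Tomato-negative libraries, lower in the Tomato-positive library of all 4 pairs. Markers of other tubule segments were present too. The summed level of 5 thick ascending limb markers ranged from 1667 to 6468 CPM in Tomato-positive and from 3880 to 13889 CPM in Tomato-negative libraries. In CKD627 libraries it was 5358 to 13889 CPM, beside 4240 to 7835 CPM for the proximal tubule markers. For 7 principal cell markers the sum ranged from 989 to 4295 CPM in Tomato-positive and from 209 to 1767 CPM in Tomato-negative libraries. The first principal component (40.9% of the variance) separated the prefixes, and the second (22.5%) the Tomato groups. Coordinates of genes are those of GENCODE M21 on mm10, where all 10 members are protein-coding. In such bulk samples, fewer cells of a type and less RNA per cell cannot be told apart.

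The 10 genes spanned a wide range of levels. Per kilobase of merged exons, which allows genes to be compared, Nfkbia was the highest member in Tomato-positive libraries at 279 ± 57.3 CPM per kilobase (SD, n = 4), followed by Nfkbiz at 117 ± 22.5, Rela at 54.4 ± 15.4, Tnfaip3 at 32.2 ± 10.1 and Nfkb2 at 28.5 ± 6.79. Birc3 (14.4 ± 2.35), Relb (14.2 ± 4.7), Nfkbie (12.1 ± 3.81) and Nfkb1 (9.12 ± 0.896) came next, and Rel was the lowest at 2.04 ± 1.26 CPM per kilobase. Among neighbours in this order, Nfkbia lay above Nfkbiz, Nfkbiz above Rela, Nfkb2 above Birc3 and Nfkb1 above Rel in the range of the 4 libraries, while Rela and Tnfaip3, Tnfaip3 and Nfkb2, and the genes from Birc3 to Nfkb1 overlapped their neighbours. In Tomato-negative libraries Nfkbia (164 ± 35.8 CPM per kilobase) again stood first and Rel (1.24 ± 0.679) last, and Nfkb2 (20 ± 0.83) was ahead of Tnfaip3 (14.1 ± 3.69). The lengths are those of all annotated transcripts merged, which for Nfkb1 come to 12061 bases, and the order depends on them. Before scaling to length, Nfkb1 averaged 110 CPM in Tomato-positive libraries, above Birc3 (72.3 CPM), Relb (55 CPM) and Nfkbie (36.7 CPM).

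Of the 5 genes grouped as feedback inhibitors, 4 were called higher in Tomato-positive cells in the paired fit. With the 4 pairs of libraries fitted as blocks, Tnfaip3, Nfkbiz, Nfkbia and Birc3 rose, by between 1.65-fold and 2.25-fold, while none of the 5 subunits and not Nfkbie passed. Without the pairing none of the 10 passed in edgeR, although 7 had an unadjusted p under 0.05 and all 10 had a positive estimate. Over all 14284 genes tested, 0.364% were called higher and 0.595% in either direction without the pairing, beside 0 of 10 members. With the pairing 3.82% were called higher and 3.81% lower (7.62% in all), beside 4 and 0 of 10 members. The median log2 difference of the members was 0.64 without and 0.58 with the pairing, beside 0.01 for all genes tested in both fits.

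Tnfaip3 (chr10:19000910-19015657, minus strand) encodes A20, an enzyme that edits ubiquitin chains and so shuts off signals on their way to NF-kappaB. Its level was 283, 278, 127 and 242 CPM in the Tomato-positive libraries CKD523_2, CKD523_3, CKD627_1 and CKD627_2, against 113, 119, 62.2 and 114 CPM in the Tomato-negative libraries of the same identifiers. Every Tomato-positive library lay above every Tomato-negative one, and both libraries of CKD627_1 were the lowest of their groups. The difference within a pair was alike in the 4 pairs, at 1.33, 1.22, 1.03 and 1.08 on the log2 scale. In the paired fit Tnfaip3 rose by a log2 difference of 1.17 ± 0.13 (SE; 95% bounds 0.88 and 1.46; edgeR adjusted p = 0.00244), and in the unpaired fit the estimate was 1.19 ± 0.29 (adjusted p = 0.091). Of the 14284 genes tested, 3.16% had a larger paired estimate.

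Nfkbiz (chr16:55811375-55838899, minus strand) encodes IkappaB-zeta, an atypical member of the IkappaB family that works in the nucleus and is needed for a set of secondary response genes. It had 651, 636, 420 and 648 CPM in the Tomato-positive libraries, in the same order of identifiers, against 401, 335, 244 and 280 CPM in the Tomato-negative libraries. The groups did not overlap, although the Tomato-positive library CKD627_1 lay close to the Tomato-negative library CKD523_2. The paired log2 difference was 0.90 ± 0.14 (SE; 95% bounds 0.59 and 1.22; edgeR adjusted p = 0.00902), against 0.90 ± 0.21 unpaired (adjusted p = 0.0819).

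Nfkbia (chr12:55489410-55492647, minus strand) encodes IkappaB-alpha, the inhibitor that holds Rela dimers in the cytoplasm and is made anew within a short time of activation. Its level was 447, 394, 376 and 580 CPM in the Tomato-positive libraries and 215, 214, 324 and 302 CPM in the Tomato-negative libraries. Here too the groups did not overlap, but the pair CKD627_1 differed by only 0.21 on the log2 scale, beside 1.06, 0.88 and 0.94 in pairs CKD523_2, CKD523_3 and CKD627_2. The paired fit gave a log2 difference of 0.78 ± 0.17 (SE; 95% bounds 0.40 and 1.15; edgeR adjusted p = 0.0271), and the unpaired fit 0.77 ± 0.21 (adjusted p = 0.11).

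Birc3 (chr9:7848699-7873186, minus strand) encodes cIAP2, a ubiquitin ligase at the tumour necrosis factor receptor that also keeps the Map3k14 kinase low. It stood at 64.8, 78.5, 60.4 and 85.7 CPM in the Tomato-positive libraries, against 44.3, 43.2, 38.4 and 48.9 CPM in the Tomato-negative libraries. All Tomato-positive values were above all Tomato-negative ones. Its paired log2 difference was 0.72 ± 0.13 (SE; 95% bounds 0.42 and 1.02; edgeR adjusted p = 0.0163), against 0.73 ± 0.15 unpaired (adjusted p = 0.0619). Its paralogue Birc2, which does much the same work in the cell, had a paired log2 difference of 0.34 ± 0.16 and did not pass (adjusted p = 0.236).

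Nfkbie (chr17:45555703-45563169, plus strand) encodes IkappaB-epsilon, a further cytoplasmic inhibitor. Its level was 47, 45.5, 22.8 and 31.6 CPM in the Tomato-positive libraries and 20, 26.6, 27.3 and 26.6 CPM in the Tomato-negative libraries. Both CKD523 libraries were high among the Tomato-positive ones, while the Tomato-positive library CKD627_1 fell within the Tomato-negative range. It did not pass (paired log2 0.50 ± 0.24, SE; 95% bounds -0.04 and 1.04; adjusted p = 0.235).

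**Figure D1:**
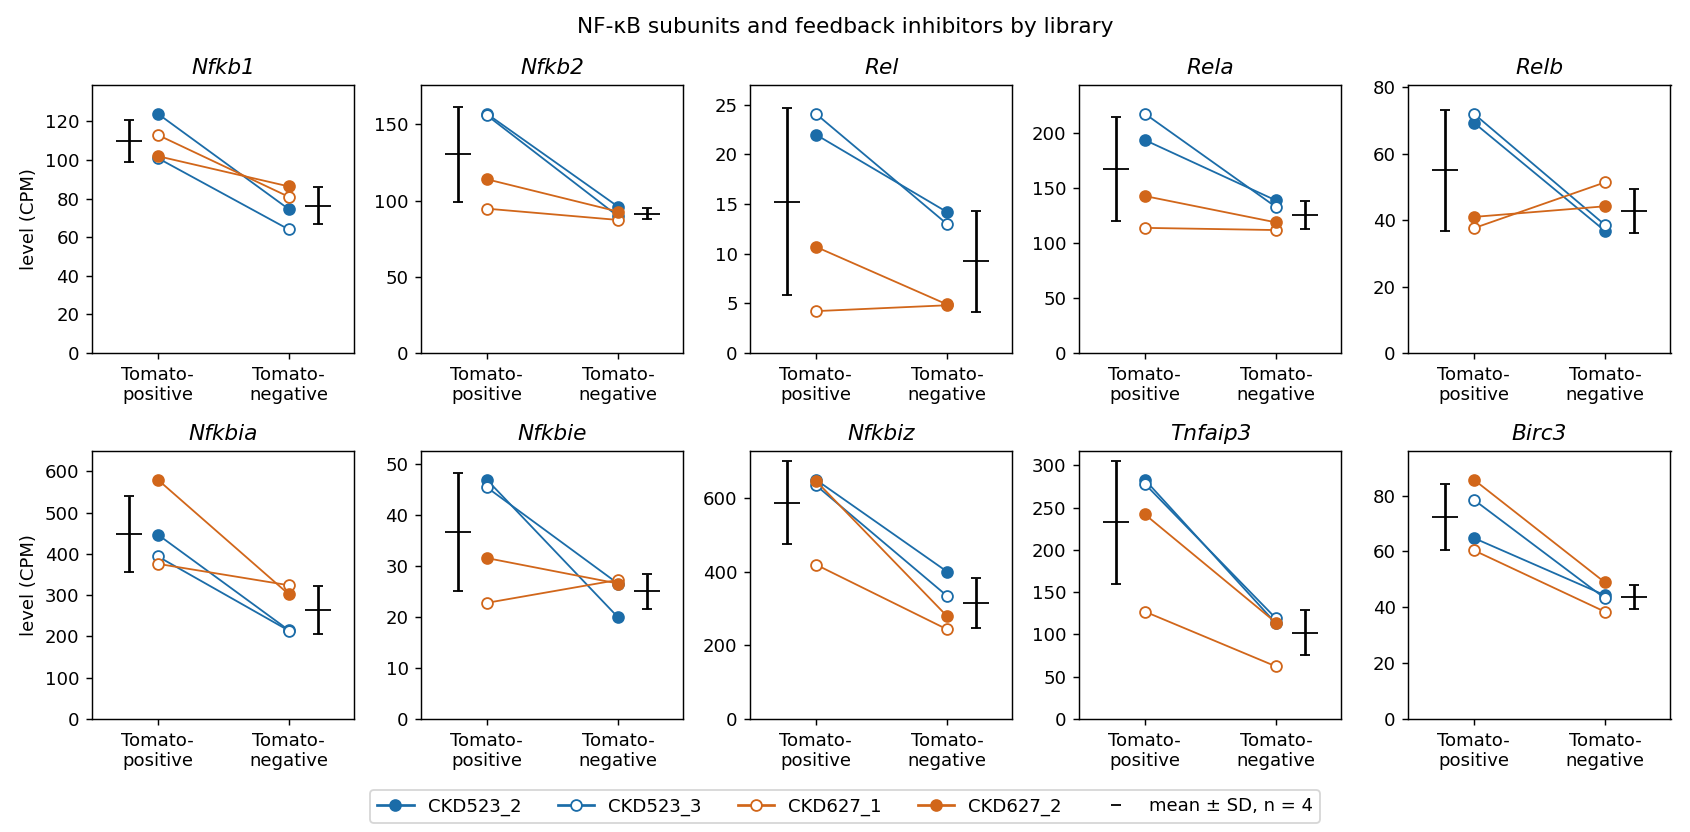
Level of each gene (y axis, CPM, from 0) in the 4 Tomato-positive and 4 Tomato-negative libraries (x axis); lines join libraries that share an identifier, colour gives the prefix, and bars are mean ± SD (n = 4). Nfkb1, Nfkbia, Nfkbiz, Tnfaip3 and Birc3 do not overlap between the groups, and the lines of Relb run in opposite directions in the 2 prefixes.

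In the paired fit the estimates of the subunits were positive and smaller than those of the 4 inhibitors that rose, and none passed over all genes with or without the pairing. Nfkb1 (chr3:135584655-135691547, minus strand), whose precursor is processed to p50, the usual partner of Rela, came nearest. It had 124, 101, 113 and 102 CPM in the Tomato-positive libraries, against 74.5, 64, 80.9 and 86.3 CPM in the Tomato-negative libraries. These groups did not overlap, and the paired log2 difference was 0.53 ± 0.14 (SE; 95% bounds 0.22 and 0.85; edgeR adjusted p = 0.0534, 0.102 unpaired). It passed in the paired fits of DESeq2 and limma-voom and in the fit with the prefix as a covariate.

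Rela (chr19:5637483-5648130, plus strand) encodes the main activating subunit, p65. Its level was 194, 218, 114 and 143 CPM in the Tomato-positive libraries and 139, 133, 112 and 119 CPM in the Tomato-negative libraries. The 2 highest values were those of the Tomato-positive CKD523 libraries, and the Tomato-positive library CKD627_1 was within the Tomato-negative range. Its paired log2 difference was 0.37 ± 0.15 (SE; 95% bounds 0.03 and 0.71; adjusted p = 0.163).

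Nfkb2 (chr19:46304320-46312385, plus strand), the precursor subunit of the slower branch, had 157, 156, 94.7 and 114 CPM in the Tomato-positive libraries, against 96.1, 89.8, 87.3 and 92.8 CPM in the Tomato-negative libraries. The Tomato-negative values were close together, and of the Tomato-positive ones CKD627_1 lay among them. Its paired log2 difference of 0.48 ± 0.15 (SE; 95% bounds 0.13 and 0.83) did not pass (adjusted p = 0.097). Exons of Nfkb2 share 299 bases with Psd and 531 bases with a non-coding RNA gene on the other strand, and since the strand setting of the counting is not given, reads there cannot be assigned with certainty. No other member shared exon bases with another annotated gene.

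Relb (chr7:19606217-19629438, minus strand), the partner of the processed Nfkb2 product, had 69.4, 72.1, 37.6 and 41 CPM in the Tomato-positive libraries and 36.8, 38.6, 51.4 and 44.2 CPM in the Tomato-negative libraries. It was higher in both Tomato-positive CKD523 libraries and lower in both Tomato-positive CKD627 libraries than in their partners. Its paired log2 difference was 0.31 ± 0.25 (SE; 95% bounds -0.24 and 0.87; adjusted p = 0.469).

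Rel (chr11:23736847-23770970, minus strand), which encodes the subunit c-Rel known mainly from lymphocytes, was the least abundant member. It had 22, 24.1, 4.22 and 10.7 CPM in the Tomato-positive libraries, against 14.2, 13, 4.81 and 4.9 CPM in the Tomato-negative libraries, from 69 to 418 counts in Tomato-positive and from 77 to 202 counts in Tomato-negative libraries. Libraries of prefix CKD523 were above those of CKD627 in both groups. The paired log2 difference was 0.63 ± 0.26 (SE; 95% bounds 0.04 and 1.23; adjusted p = 0.172), and the unpaired bounds were much wider, at -0.55 and 2.01.

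**Figure D2:**
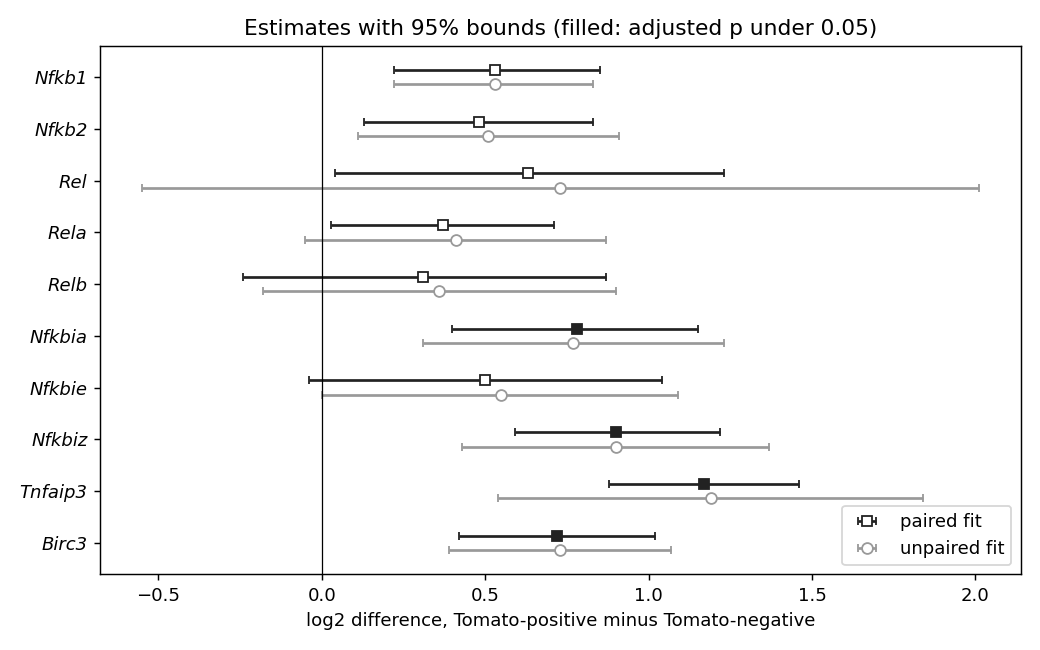
Log2 difference of Tomato-positive minus Tomato-negative cells (x axis) for each member (y axis), with 95% bounds, in the paired fit (squares) and the unpaired fit (circles); filled symbols have an adjusted p under 0.05. All 10 estimates are above 0 in both fits, and the 4 filled ones are Nfkbia, Nfkbiz, Tnfaip3 and Birc3 in the paired fit.

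In 5 of 10 members every Tomato-positive library was above every Tomato-negative one (Nfkb1, Nfkbia, Nfkbiz, Tnfaip3 and Birc3), a pattern shown by 6.74% of all genes tested, and in no member was the reverse seen (6.48% of all genes tested). In 7 of 10 the Tomato-positive library was higher in all 4 pairs, as in 17.9% of all genes tested; Rel and Nfkbie were higher in 3 pairs and Relb in 2. The count of 4 in the paired fit rested on single pairs. It was 2 without CKD523_2 (Nfkbiz and Tnfaip3), 1 without CKD523_3 or without CKD627_2 (Tnfaip3 in both cases) and 7 without CKD627_1, where Nfkb1, Nfkb2 and Rel joined the 4. Over all genes tested, 3.59% were called in either direction without CKD523_2, 1.41% without CKD523_3, 2.7% without CKD627_2 and 9.25% without CKD627_1, beside 7.62% with all pairs. DESeq2 called 5 members without and 5 with the pairing, adding Nfkb1 to the 4, beside 3.38 and 6.79% of all genes called higher. limma-voom called 0 without and 5 with the pairing (6 at an unadjusted p under 0.05 without it), beside 0.364 and 4.71%.

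NF-kappaB binds a short DNA element known as the kappaB site, and several of its inhibitor genes carry such sites near the start of transcription. RefSeq promoters (build GRCm38.p6, the assembly of the mm10 files, 250 bases before to 50 after a start) were held for 7 of the 10 members; Nfkb1, Relb and Nfkbiz had no entry. The 10-base kappaB consensus was searched by name on both strands. It was present in 5 of the 7 members with an entry (Nfkb2, Rel, Nfkbia, Nfkbie and Tnfaip3), while 5.14% of the 27025 genes in the table and 4.51% of its 32851 promoters held it. No match was found in the windows of Rela and Birc3. The promoters shown are those of the called inhibitors that held a match, Nfkbia (chr12:55492598-55492897, minus strand) and Tnfaip3 (the upstream of its 2 starts, chr10:19015361-19015660, minus strand), and of the subunits Nfkb2 (the first of its 3 starts, chr19:46304487-46304786, plus strand) and Rel (chr11:23770920-23771219, minus strand), which differed between the prefixes. Each is written 5′ to 3′ along the gene, with the matches in capitals; where matches overlap, the run of capitals is longer than 10 bases.
Nfkbia: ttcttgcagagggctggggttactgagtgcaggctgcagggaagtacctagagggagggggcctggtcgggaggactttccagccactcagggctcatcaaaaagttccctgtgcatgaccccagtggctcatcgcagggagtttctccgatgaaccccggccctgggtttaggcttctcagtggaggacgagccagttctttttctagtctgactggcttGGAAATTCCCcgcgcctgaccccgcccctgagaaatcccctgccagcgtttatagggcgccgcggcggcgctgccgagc
Tnfaip3: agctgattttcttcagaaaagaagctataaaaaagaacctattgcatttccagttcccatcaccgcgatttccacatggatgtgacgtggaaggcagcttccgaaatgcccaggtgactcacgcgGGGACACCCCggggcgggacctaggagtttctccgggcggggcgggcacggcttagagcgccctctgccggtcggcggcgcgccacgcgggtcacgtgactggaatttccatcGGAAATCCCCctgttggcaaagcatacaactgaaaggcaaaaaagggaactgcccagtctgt
Nfkb2: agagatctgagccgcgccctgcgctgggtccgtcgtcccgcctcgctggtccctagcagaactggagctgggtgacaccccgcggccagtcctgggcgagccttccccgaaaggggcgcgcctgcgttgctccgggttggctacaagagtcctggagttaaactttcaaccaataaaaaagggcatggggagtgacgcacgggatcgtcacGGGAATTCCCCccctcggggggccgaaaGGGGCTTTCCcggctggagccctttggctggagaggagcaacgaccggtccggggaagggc
Rel: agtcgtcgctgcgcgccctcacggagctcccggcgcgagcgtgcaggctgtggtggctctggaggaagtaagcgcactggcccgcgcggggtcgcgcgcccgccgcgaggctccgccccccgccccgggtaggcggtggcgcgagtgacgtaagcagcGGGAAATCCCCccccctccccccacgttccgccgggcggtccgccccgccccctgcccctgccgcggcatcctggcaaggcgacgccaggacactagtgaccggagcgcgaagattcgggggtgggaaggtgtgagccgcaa
The match in Nfkbia began 29 bases before the start, and those in Tnfaip3 125 and 12 bases before it. In Nfkb2 matches began 39, 38 and 11 bases before the start, and in Rel 92 and 91 bases before it. The Nfkbie promoter held the match GGGGGATTCC, beginning 106 bases before the start. A match describes the sequence alone; binding was not measured here.

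The 2 prefixes were then set against each other. Fitted alone without the pairing, each with 2 libraries per group, CKD627 gave 0 of 10 members past the threshold and CKD523 gave 10 of 10. In CKD627, 4 had an unadjusted p below 0.05, and 1.06% of all genes were called higher, beside 7.35% in CKD523. With the pairing, Nfkbiz (log2 0.96 ± 0.25, SE, edgeR adjusted p = 0.00341) and Tnfaip3 (1.03 ± 0.26, adjusted p = 0.00218) passed in CKD627. The other members did not pass there, and in CKD523 every member passed. The share of all genes called in these paired fits was not counted. In the unpaired fits the median log2 difference of the members was 0.45 in CKD627 and 0.79 in CKD523. Tnfaip3 (1.04 in CKD627 and 1.28 in CKD523), Nfkbiz (1.00 in CKD627 and 0.80 in CKD523) and Birc3 (0.72 in CKD627 and 0.71 in CKD523) had like estimates in both. Relb stood at -0.32 in CKD627 and 0.91 in CKD523, Nfkbie at -0.02 in CKD627 and 0.99 in CKD523, Nfkb2 at 0.18 in CKD627 and 0.75 in CKD523, and Rela at 0.12 in CKD627 and 0.60 in CKD523. A gene past the threshold in 1 prefix and not in the other is not thereby shown to differ between them, so the difference itself was tested.

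No member passed that test in edgeR, with or without the pairing (3 at an unadjusted p under 0.05 in each case; 0.014 and 0.14% of all genes called). The largest difference was that of Relb, with -1.19 ± 0.24 (SE) on the log2 scale for CKD627 minus CKD523. Its 95% bounds were -1.73 and -0.66 in the unpaired fit (edgeR adjusted p = 0.174) and -1.78 and -0.60 in the paired fit (0.114). DESeq2 called Relb, as it did 1.96% of all genes. Nfkbie (-0.97 ± 0.32, adjusted p = 0.265) and Nfkb2 (-0.54 ± 0.22, adjusted p = 0.341) were the other members under an unadjusted p of 0.05. In the unpaired fit the difference was 0.03 ± 0.30 for Birc3 (95% bounds -0.63 and 0.69) and -0.21 ± 0.43 for Tnfaip3 (-1.16 and 0.74). The bounds in the paired fit were -0.54 and 0.60 for Birc3 and -0.70 and 0.26 for Tnfaip3.

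**Figure D3:**
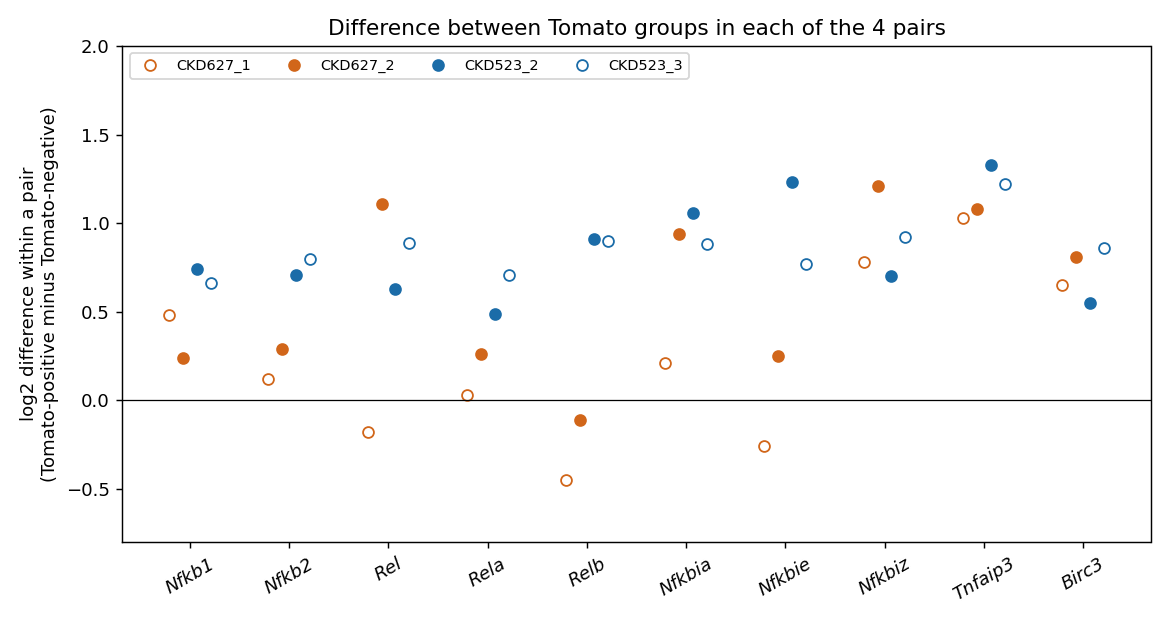
Log2 difference of the Tomato-positive minus the Tomato-negative library (y axis) within each of the 4 pairs, for each member (x axis); colour gives the prefix. Tnfaip3 lies between 1.03 and 1.33 in all pairs, while Relb is at -0.45 and -0.11 in the CKD627 pairs and at 0.91 and 0.90 in the CKD523 pairs.

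Levels were also set against each other between prefixes across both Tomato groups. For this, the counts of the libraries sharing an identifier were summed, which left 2 identifiers against 2. Rel, Rela and Nfkb2 were lower in CKD627, 3 of 10 members, beside 12.6% of all genes called lower and 21.8% called in either direction. Rel averaged 6.16 ± 3.06 CPM in CKD627 and 18.3 ± 5.56 CPM in CKD523 libraries (SD, n = 4 each), and every CKD627 library was below every CKD523 library, as in 10.4% of all genes tested. Its log2 level fell by 1.58 ± 0.28 (SE; edgeR adjusted p = 0.00236). Rela fell by 0.53 ± 0.13 (122 ± 14.2 CPM in CKD627 and 171 ± 41.6 CPM in CKD523; adjusted p = 0.016) and Nfkb2 fell by 0.40 ± 0.13 on the log2 scale (97.2 ± 11.5 CPM in CKD627 and 125 ± 36.8 CPM in CKD523; adjusted p = 0.0477), and for both the libraries of the prefixes overlapped. Nfkbia had an estimate of 0.30 ± 0.15 (adjusted p = 0.208), Birc3 one of -0.01 ± 0.17 and Nfkb1 one of 0.02 ± 0.14, with 95% bounds of -0.28 and 0.33 for Nfkb1.

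In the 10 other settings of this comparison, the estimate of Rel stayed negative, between -2.06 and -1.18 on the log2 scale. Leaving out an identifier leaves 1 prefix with a single sum, so calls in those settings are not given. In Tomato-positive libraries alone 5 members were lower in CKD627 (Nfkb2, Rel, Rela, Relb and Nfkbie), and in Tomato-negative libraries alone only Rel was; of all genes tested, 13% and 17.6% were called in either direction there. With library size as the only scaling, Rel was lower, Nfkbia was higher, and Rela and Nfkb2 did not pass. In that setting 23.7% of all genes tested were called in either direction. Markers of cell types moved with the prefix as well: of the 14 proximal tubule markers 13 were lower in CKD627, with a summed level from 4240 to 7835 CPM in CKD627 and from 12523 to 27972 CPM in CKD523 libraries, and all 8 endothelial markers were higher, with 349 to 664 CPM in CKD627 and 55.8 to 227 CPM in CKD523. Also higher in CKD627 were 5 of 5 thick ascending limb markers (median log2 difference 1.61), 6 of 7 principal cell markers (1.81), 3 of 5 intercalated cell markers (1.49) and 2 of 5 distal tubule markers (0.08). Of 7 macrophage markers tested 1 was higher and 2 were lower. The leukocyte gene Ptprc averaged 8.82 ± 0.536 CPM in CKD627 and 2.18 ± 0.768 CPM in CKD523 libraries (SD over 4 libraries each). Its edgeR adjusted p of 0.00143 came from the fit on sums, with 2 identifiers against 2. The part of these markers in the differences of Rel, Rela and Nfkb2 was not tested.

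Around the members, 88 of 94 other genes of the pathway could be tested, in 4 lists. In edgeR without the pairing none passed (27 had an unadjusted p below 0.05; DESeq2 called 14 and limma-voom 0), and with it 14 rose and 1 fell. These are 15.9% higher and 1.14% lower, beside 3.82% and 3.81% of all genes tested, and the 14 that DESeq2 called are 15.9%, beside 7% of all genes. Their median paired log2 difference was 0.28, beside 0.01 for all genes. The members and the lists were chosen with earlier results of these data known, so an excess over all genes is not independent support.

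Of the ligands and receptors, 3 of 17 tested rose with the pairing and none fell. These were Il1r1, the interleukin 1 receptor (35.6 ± 17.8 CPM in Tomato-positive and 19.7 ± 10.8 CPM in Tomato-negative libraries; paired log2 0.89 ± 0.16, SE; adjusted p = 0.0153, 0.375 unpaired), Tlr4, the receptor for bacterial lipopolysaccharide (20.3 ± 6.86 CPM in Tomato-positive and 8.77 ± 4.07 CPM in Tomato-negative libraries; paired log2 1.27 ± 0.28, adjusted p = 0.0284, 0.152 unpaired), and Tnfrsf1b, a receptor for tumour necrosis factor (16.6 ± 0.737 CPM in Tomato-positive and 8.58 ± 1.53 CPM in Tomato-negative libraries; paired log2 0.97 ± 0.22, adjusted p = 0.0314, 0.0619 unpaired). The other tumour necrosis factor receptor gene, Tnfrsf1a, stood at 177 CPM in Tomato-positive and 169 CPM in Tomato-negative libraries. It did not pass (paired log2 0.06 ± 0.13, adjusted p = 0.827). The ligand gene Tnf was at 14.9 CPM in Tomato-positive and 8.75 CPM in Tomato-negative libraries (paired log2 0.84 ± 0.43, adjusted p = 0.261). Il1b, a ligand of Il1r1, was at 0.343 CPM in Tomato-positive and 1.59 CPM in Tomato-negative libraries (paired log2 -2.34 ± 0.96, adjusted p = 0.172). Tnf, Tnfrsf1a and Il1b, and in the next lists the kinase subunits, Birc2, Sod2 and Icam1, were named after their values were seen.

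Of 25 adaptors and kinases tested 1 was called higher, or 4%, which is close to the 3.82% of all genes called higher in that fit and so says nothing about the list. Map3k14, the kinase of the slower branch, rose with the pairing (74.2 ± 19.4 CPM in Tomato-positive and 45.8 ± 15.4 CPM in Tomato-negative libraries; log2 0.72 ± 0.13, SE; adjusted p = 0.016, 0.233 unpaired). The kinase subunits that mark IkappaB had paired log2 differences of -0.14 ± 0.16 (Chuk), 0.28 ± 0.12 (Ikbkb) and -0.13 ± 0.16 (Ikbkg), none of which passed. Of 17 other inhibitors 1 was called, or 5.88%, likewise near the share of all genes. This was Zc3h12a, a ribonuclease that destroys cytokine messages (54.6 ± 18.5 CPM in Tomato-positive and 33.3 ± 13.9 CPM in Tomato-negative libraries; paired log2 0.75 ± 0.15, adjusted p = 0.0242, 0.353 unpaired). The medians of these lists were 0.35 for ligands and receptors, 0.19 for adaptors and kinases and 0.10 for other inhibitors.

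Of 29 tested target genes, 9 rose and 1 fell with the pairing, which is 31% higher and 3.45% lower, and the median was 0.53. C3, the central complement protein, averaged 1551 ± 412 CPM in Tomato-positive and 692 ± 246 CPM in Tomato-negative libraries (paired log2 1.21 ± 0.15, SE; adjusted p = 0.00337, 0.11 unpaired). Ptgs2, the inducible cyclooxygenase, averaged 30.8 ± 11.8 CPM in Tomato-positive and 13.2 ± 5.51 CPM in Tomato-negative libraries (paired log2 1.22 ± 0.17, adjusted p = 0.0061, 0.122 unpaired), and Csf1, a growth factor for macrophages, 116 ± 23.6 CPM in Tomato-positive and 62 ± 8.01 CPM in Tomato-negative libraries (0.88 ± 0.13, adjusted p = 0.00799, 0.0603 unpaired). Irf1, a transcription factor of the interferon response, had 318 ± 76.6 CPM in Tomato-positive and 179 ± 65.9 CPM in Tomato-negative libraries (0.87 ± 0.15, adjusted p = 0.0127, 0.188 unpaired). Named after their values were seen, the other 5 that rose were Gadd45b, Tnfaip2, Cxcl1, Vcam1 and Cxcl2, with paired log2 differences between 0.65 and 0.99. The 1 that fell, likewise, was Plau, the urokinase gene (462 ± 52.4 CPM in Tomato-positive and 823 ± 162 CPM in Tomato-negative libraries; -0.82 ± 0.16, adjusted p = 0.0182, 0.0631 unpaired). Targets that did not pass included Sod2, a mitochondrial superoxide dismutase, with -0.47 ± 0.15 (adjusted p = 0.0889), and Icam1, an adhesion molecule, with 0.37 ± 0.15 (adjusted p = 0.152).

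**Figure D4:**
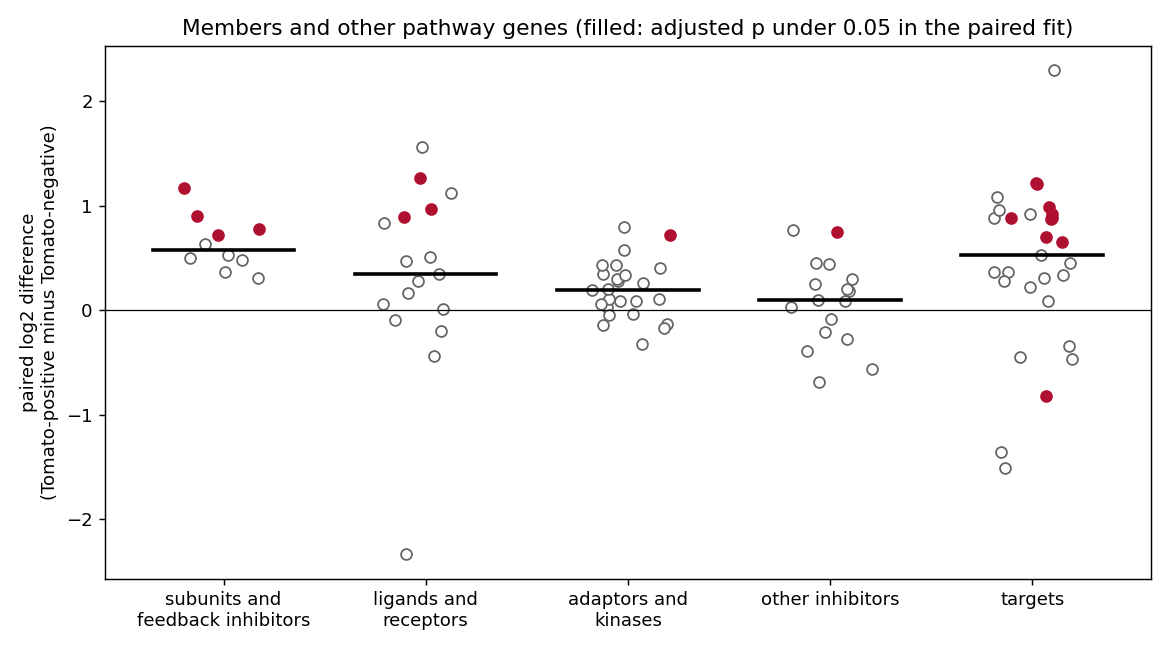
Paired log2 difference of Tomato-positive minus Tomato-negative cells (y axis) for the 10 members and the tested genes of the 4 pathway lists (x axis); filled points have an adjusted p under 0.05 in the paired fit, and bars are medians. The median is 0.58 for the members, 0.53 for targets and 0.10 for other inhibitors.

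Blood cells carry much NF-kappaB activity, so their markers were read in the same libraries. The summed level of 10 macrophage markers ranged from 28.1 to 48.3 CPM in Tomato-positive and from 36.7 to 53.9 CPM in Tomato-negative libraries and was lower in the Tomato-positive library of all 4 pairs. That order rested on Csf1r, the receptor for the growth factor made from Csf1, at 10.9 ± 6.23 CPM in Tomato-positive and 27.4 ± 11 CPM in Tomato-negative libraries (SD, n = 4 each; paired log2 -1.52 ± 0.42, SE; edgeR adjusted p = 0.0617). Without Csf1r, left out after the values were seen, the other 9 markers summed to 25.4 ± 5.5 CPM in Tomato-positive and 19 ± 6.57 CPM in Tomato-negative libraries and were higher in the Tomato-positive library of 3 of 4 pairs. Of all 10 markers, Csf1r included, 7 could be tested and 1 rose with the pairing, or 14.3%, beside 3.82% of all genes. This was Cd68, a lysosomal protein that other cells make too. It averaged 14.4 ± 5.34 CPM in Tomato-positive and 5.32 ± 1.25 CPM in Tomato-negative libraries (paired log2 1.40, edgeR adjusted p = 0.0153). The sum of 12 markers of other leukocytes was between 5.19 and 11.6 CPM in Tomato-positive and between 2.7 and 12.9 CPM in Tomato-negative libraries. Cd3e, Cd3d and Nkg7 had no count in any library, and Ptprc, which all leukocytes carry, stood at 5.7 CPM in Tomato-positive and 5.3 CPM in Tomato-negative libraries. Tubule markers moved with the Tomato groups: all 7 principal cell markers rose with the pairing, while 6 of 14 proximal tubule, 4 of 5 thick ascending limb, 3 of 5 distal tubule and 2 of 5 intercalated cell markers fell. The summed level of 7 fibroblast and pericyte markers was higher in the Tomato-positive library of all 4 pairs (84.5 to 169 CPM in Tomato-positive and 62.4 to 134 CPM in Tomato-negative libraries), and none of the 6 tested passed. Their part in the rise of the inhibitors was not tested.

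For each member the gene with the closest pattern over the 8 libraries was sought among 11305 genes, by the root mean square difference of log2 levels after each gene's own mean was subtracted. The closest to Tnfaip3 was C3 (0.18) and the closest to Nfkbiz was Csf1 (0.13). Those of the other members were Eml4 for Nfkbia (0.15), Focad for Birc3 (0.07), Zbtb42 for Nfkbie (0.16), Fbxw17 for Nfkb1 (0.07), Zup1 for Nfkb2 (0.07), Cdc42ep4 for Rela (0.10), Tmbim1 for Relb (0.10) and Dusp5 for Rel (0.18). Among the members themselves, Nfkb2 and Rela were each other's closest (0.10), as were Relb and Nfkbie (0.17), while Tnfaip3 was closest to Nfkbiz (0.28) and both Nfkbiz and Nfkbia to Birc3 (0.25 and 0.26). Rel was the farthest member from each of the other 9. The distance was not scaled to how widely a gene varies. Rel varied most around its own mean (0.93), beside 0.30 (Nfkb1) to 0.72 (Tnfaip3) in the others. The median distance of a member to all candidate genes was between 0.44 (Nfkb1) and 0.97 (Rel). These distances are descriptions over 8 libraries that share identifiers and prefixes.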

How the data were processed

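RNA was measured in 8 libraries, 4 Tomato-positive and 4 Tomato-negative. The authors deposited raw counts per gene symbol. Per the file headers the reads were aligned with subread, and per the submitters' processing notes the build was mm10 with edgeR 3.32.1 and limma 3.46.0 among the tools; the sources used here do not state the counter, annotation or strand setting. Libraries of 1 group differed by far more than counting noise (chi-square per degree of freedom of 15.5 or more), so each counted as 1 sample.

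Genes were kept with filterByExpr (minimum count 10, total 15), which left 14284 of 25240, and compared with edgeR 4.0.16 in R 4.3.3 (TMM, quasi-likelihood test, 2-sided, Benjamini-Hochberg over all genes tested, threshold 0.05). The unpaired fit is the main one. Libraries sharing an identifier correlated across genes after removal of group means (0.46, 0.32, 0.33 and 0.47, all above the limit of 0.1). By that limit the paired fit stands beside the unpaired one. Libraries of the same prefix but another identifier gave between 0.30 and 0.47, so the check cannot tell a shared identifier from a shared prefix. Prefixes were compared on counts summed per identifier. The SE was taken as the size of the log2 difference divided by the square root of F. Pair differences used log2(CPM + 0.1). Alternatives included DESeq2 1.42.0 and limma-voom 3.58.1. Exon lengths and overlaps came from GENCODE M21 (GRCm38). Scripts were tested on simulated data.

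The members, the lists and the tests were chosen with earlier results of these data known. Named genes were all members, up to 4 called genes with the smallest paired p per pathway list, the gene with the closest pattern to each member (mean of at least 5 CPM, predicted genes left out), and tdTomato and Cdkn2a. The report says which pathway genes were named outside this rule.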

Additional observations from a re-analysis of the deposited data

Results flagged for a closer look

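In groups of 4 libraries, a single value stood apart from the other 3 by more than Dixon's 95% critical share of the group's range in 3 of 20 cases, where chance gives about 1 in 20. The Tomato-positive library CKD627_1 had 420 CPM of Nfkbiz, below the other 3. The Tomato-negative library CKD627_1 had 62.2 CPM of Tnfaip3, below the other 3, and the Tomato-negative library CKD523_2 had 20 CPM of Nfkbie, also below the rest. Relb moved in opposite directions in the prefixes: Tomato-positive libraries were below their partners in both CKD627 pairs and above them in both CKD523 pairs, a difference of -1.19 on the log2 scale (CKD627 minus CKD523) that did not pass in edgeR (adjusted p = 0.174 unpaired, 0.114 with the pairing).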

How the results depend on the processing

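The unpaired count of 0 members called between Tomato groups was 4 with the identifier as a replicate block, 5 with the prefix as a covariate, 5 in DESeq2, 5 in DESeq2 with the replicate block and 10 in CKD523 alone; the other scalings, other filters, limma-voom, CKD627 alone and leaving out any library or pair gave 0. For other pathway genes the count of 0 was 15, 20, 14, 23 and 29 under those settings in the same order, and 3 in CKD627 alone. The paired count of 4 ranged from 1 to 7 when a pair was left out. Between prefixes, 3 members were called with sums, and 5 in Tomato-positive and 1 in Tomato-negative libraries alone. Without an identifier 1 prefix is left with a lone sum, so calls there are not given. Nfkb2 was not called with all 8 libraries, DESeq2, RLE factors or library size only. Library size alone moved the median of all genes between prefixes by 0.19 on the log2 scale. In DESeq2, 1 member (Relb) differed between prefixes in its Tomato difference. Over all genes tested, 85 were called between Tomato groups in the unpaired fit, 1089 with the replicate block, 1527 with the prefix as a covariate, 2231 in CKD523 and 303 in CKD627 alone, 1000 in DESeq2 (2026 with the block), 45 with no filter, 6 to 26 without a library and 1 to 4 without a pair; the paired count ranged from 203 to 1319 without a pair. Between prefixes 3351 were called with sums and 1890 in Tomato-positive libraries alone, and the Tomato difference differed between prefixes for 2 genes, 20 with the block and 280 in DESeq2.

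Estimates changed sign as follows. In CKD627 alone Relb was at -0.32 and Nfkbie at -0.02. For CKD627 minus CKD523, Nfkb1 was at -0.08 in Tomato-positive libraries and between -0.09 and 0.15 without an identifier, Relb and Nfkbie were at 0.29 and 0.16 in Tomato-negative libraries, and Birc3 was at 0.01 with 8 libraries, RLE factors or DESeq2, 0.02 in Tomato-positive libraries, 0.18 with library size only and between -0.27 and 0.25 without an identifier. The Tomato difference of Birc3 between prefixes was -0.04 with library size only. The cause of these changes was not tested. All 10 members had at least 69 counts per library. How much of their spread is counting noise was not tested. Of the 94 other pathway genes, 6 did not pass the filter (88 tested).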
